A study of Mus musculus with 7 samples.

Results

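Small leucine-rich proteoglycans (SLRPs) and matricellular proteins are secreted components of the extracellular matrix. The transcripts described here are those of 10 genes, chosen by symbol: the 7 SLRP genes Dcn, Lum, Bgn, Fmod, Ogn, Prelp and Aspn, the fibronectin gene Fn1, the tenascin C gene Tnc and the periostin gene Postn. All 10 were found among the 21176 genes measured, each under 1 identifier and annotated as protein coding. RNA was sequenced from follicular dendritic cells (FDCs), the stromal cells that display antigen to B cells in the follicle, isolated by FACS. The popliteal nodes came from male mice that were 8 to 12 weeks old and had not been immunized. The groups were wild type (WT, n = 4) and Ngfr KO (n = 3), labelled as a knockout of the low-affinity neurotrophin receptor gene; the labels name neither the allele nor the strain. Each sample pooled the nodes of several animals, so p-values measure the spread between pools. The comparison asks which FDC transcripts differ between samples labelled WT and those labelled Ngfr KO.

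SLRPs are small core proteins built around a horseshoe of leucine-rich repeats, and most carry chondroitin, dermatan or keratan sulfate chains. They bind fibrillar collagen and set the spacing and width of its fibrils, and some also bind growth factors and receptors at the cell surface. Matricellular proteins such as tenascin C and periostin are less structural: they link matrix to cells through integrins and are often made during remodelling. In lymph nodes, matrix is made by stromal cells and largely wrapped by them, so that lymphocytes have little contact with collagen fibres.

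Depth was 17244925 to 18873542 reads in WT and 20741770 to 21538400 in Ngfr KO. The deepest WT library had fewer reads than the shallowest Ngfr KO library, so depth and genotype cannot be told apart between samples. Ngfr was covered by 97 to 298 reads in WT and by 46 to 104 in Ngfr KO, so the targeted transcript was present in all libraries, those labelled Ngfr KO included (edgeR log2 change -1.55, adjusted p = 0.0574). Of 14 FDC markers, all were measured, and limma called 13 higher in Ngfr KO and none lower. edgeR called 12 higher and none lower, with Sox9 not called (adjusted p = 0.0858). The summed value of all 14 was 1818 to 5116 in WT against 7910 to 10461 in Ngfr KO. Cxcl13, Clu and Mfge8 weighed most in that sum (WT means 1983, 1122 and 292). Cxcl13 was called by neither tool (limma adjusted p = 0.180, edgeR adjusted p = 0.164). Of 16 endothelial markers, 15 were tested by limma and all 15 were lower. edgeR tested 16 and called 14 lower, with Lyve1 and Flt1 not called (adjusted p = 0.0975 and 0.392). The summed value of the 16 was 186 to 293 in WT against 52.8 to 94.5 in Ngfr KO. Pericyte and smooth muscle markers summed to 25.3 to 61.7 and 47.9 to 80.2 (3 of 6 tested were higher), macrophage and myeloid markers to 20.6 to 32.3 and 24.2 to 60.5 (Lyz2 higher and Mrc1 lower of 3 tested by limma, neither called by edgeR). B-cell markers summed to 13.8 to 21.1 and 12.7 to 31.1 (Ms4a1 higher of 4 tested by limma, not by edgeR) and T-cell markers to 2.63 to 10.9 and 3.54 to 10.1 (none of 5 called by limma), in WT and Ngfr KO in that order. In bulk samples, fewer cells of a type and less RNA per cell cannot be told apart. All values are the authors' scaled read numbers, in which a value of 1 was worth 230 to 295 reads.

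Among the 10 genes, Dcn rose about 4-fold in Ngfr KO and Fn1 about 2-fold, the latter by a call that most alternative settings lost, while Prelp fell to 0.141 and Tnc to 0.453 of the WT mean. Of the 7 genes abundant enough to be tested with limma on log2(value + 1), 2 rose, 2 fell and 3 were not called at an adjusted p-value under 0.05. Calls were common throughout: 34.2% of all genes tested were called, 18.3% higher and 15.8% lower. The median log2 change of the 7 genes was 0.53, against 0.02 over all 8326 genes tested. In 3 of the 7 genes, 1 higher and 2 lower, the groups did not overlap, as in 40.9% of all genes tested (22.6% higher and 18.3% lower). Fmod, Ogn and Aspn were too low for that test.

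**Figure D1:**
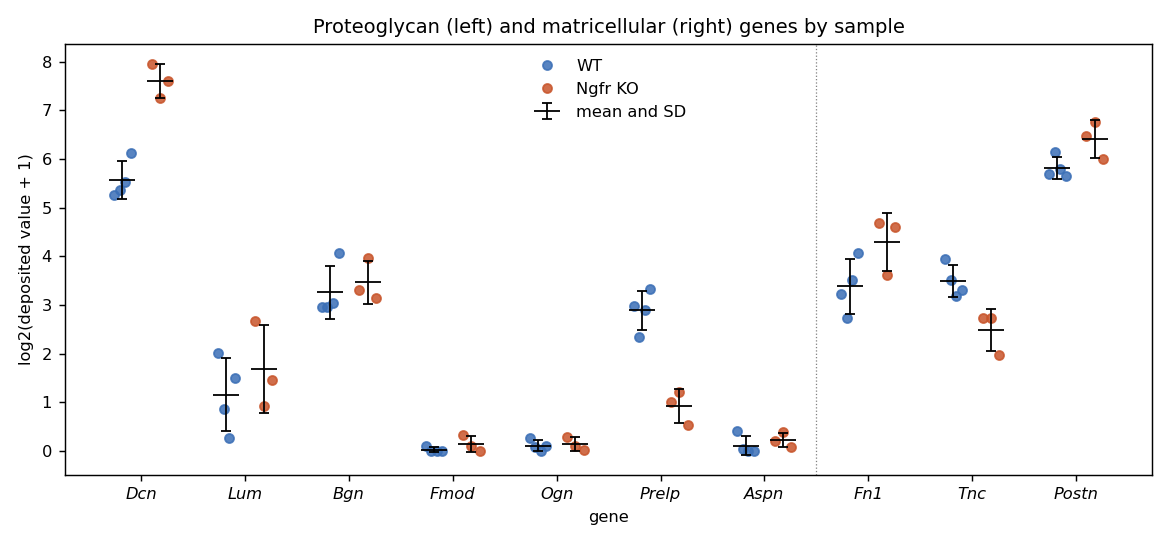
Values of the 10 genes in each of the 7 samples, as log2(deposited value + 1) on the vertical axis; each point is 1 pooled sample (blue, WT; orange, Ngfr KO), and black marks give the mean and SD on that scale. Dcn lies wholly higher and Prelp and Tnc wholly lower in Ngfr KO, whereas Fmod, Ogn and Aspn stay near 0 in both genotypes.

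Dcn encodes decorin, a dermatan sulfate proteoglycan that decorates collagen fibrils and can bind transforming growth factor beta. Dcn (ENSMUSG00000019929) occupies chromosome 10, 97479609 to 97518143, plus strand (GENCODE M21 on GRCm38). Its values were 37.5, 40.4, 44.9 and 69.3 in WT replicates 1 to 4. In Ngfr KO replicates 1 to 3 they were 248, 151 and 195. The lowest Ngfr KO sample lay well above the highest WT sample. The means were 48.0 ± 14.5 (SD, n = 4) and 198 ± 49 (SD, n = 3), a ratio of 4.12. This was a log2 change of 2.03 with an SE of 0.26 (limma adjusted p = 4.37e-04). An exact permutation test of the values, two-sided, gave p = 0.0286, the smallest that 4 against 3 samples allow. Only 30 of the 8326 genes tested, 0.36%, had a log2 change as high or higher.

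The rise of Dcn went with higher FDC markers. As a percentage of the summed FDC markers, Dcn stood at 1.02 to 2.06 in WT against 1.74 to 3.14 in Ngfr KO, and on that measure the groups overlapped. The overlap came from WT replicate 1 alone, whose summed FDC markers were the lowest of all samples. Dcn is also a classical fibroblast transcript, and fibroblastic reticular and adventitial fibroblast markers were therefore read beside it. Of 16 such genes in the table, 7 were tested; Ccl19, Pdgfra and Il7 were higher and Lepr was lower by limma, and edgeR did not call Pdgfra or Il7 (adjusted p = 0.0828 and 0.0622). Their summed value was 69.3 to 155 in WT against 109 to 133 in Ngfr KO, so the groups overlapped. WT replicate 4 was the highest of all, and its place rested on Ccl21a (limma adjusted p = 0.430). Ccl21a ranged from 6.81 to 73.5 in WT and from 3.26 to 19.7 in Ngfr KO. In the other WT samples the whole list summed to at most 73.3, below every Ngfr KO sample. Of the 16, 7 stayed under a value of 1 in all samples (Pdgfrb, Dpt, Pi16, Dpp4, Cd34, Mfap5 and Clec3b), while Ly6c1 reached 5.27, Gsn 3.79 and Col15a1 1.63. As a percentage of the summed fibroblast markers, Dcn was 44.8 to 64.8 in WT against 139 to 209 in Ngfr KO. The part of either cell type in the rise of Dcn was not tested.

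Prelp encodes prolargin, a basic SLRP that binds heparan sulfate and collagen and anchors basement membranes to connective tissue. Prelp (ENSMUSG00000041577) occupies chromosome 1, 133910304 to 133921414, minus strand. WT replicates 1 to 4 had values of 6.94, 4.07, 6.48 and 9.0, and Ngfr KO replicates 1 to 3 had 1.02, 1.33 and 0.444. The groups did not overlap: the lowest WT value was about 3-fold the highest Ngfr KO value. The mean fell from 6.62 ± 2.02 (SD, n = 4) to 0.931 ± 0.448 (SD, n = 3), a 7.11-fold difference. On the log2(value + 1) scale it changed by -1.97 (SE 0.23; limma adjusted p = 3.20e-04). The exact permutation p, two-sided, was 0.0571. The pseudocount compresses this fall: on the recovered reads edgeR gave -2.74 (adjusted p = 0.00476). Only 15 of 8326 genes, 0.18%, fell as far or farther on the limma scale.

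Tnc encodes tenascin C, a large hexameric glycoprotein that modulates adhesion to fibronectin. Tnc (ENSMUSG00000028364) occupies chromosome 4, 63959785 to 64047015, minus strand. Its values were 14.4, 10.5, 8.14 and 8.86 in WT replicates 1 to 4, and 5.62, 5.66 and 2.95 in Ngfr KO replicates 1 to 3. Again no Ngfr KO sample reached the lowest WT sample. The mean fell from 10.5 ± 2.8 (SD, n = 4) to 4.74 ± 1.55 (SD, n = 3). This gave a log2 change of -1.01 with an SE of 0.23 (limma adjusted p = 0.00689) and, two-sided, an exact permutation p of 0.0286. A fall at least as large was found in 3.53% of the genes tested.

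Between genotypes, both falls went with the lower endothelial markers, and the part of those cells in either fall was not tested. Within WT, Prelp was highest (9.0) in replicate 4, whose summed endothelial markers were the lowest of the WT samples (186). Tnc was highest (14.4) in WT replicate 1, whose sum was the highest (293). Within Ngfr KO, both genes were lowest in replicate 3, which also had the lowest sum (52.8). Tnc was 3.37 to 4.90% of the summed endothelial markers in WT and 5.59 to 6.22% in Ngfr KO, so relative to that list it was not lower in any Ngfr KO sample. Prelp was 1.72 to 4.84% of the summed list in WT and 0.841 to 1.46% in Ngfr KO, so it was lower relative to that list in every Ngfr KO sample. The summed FDC markers, in contrast, were higher in every Ngfr KO sample. Relative to them, both Tnc and Prelp were lower in every Ngfr KO sample than in any WT sample. That follows from the opposite directions of the genes and the list and is no separate result. Across genes, log2 changes ran against transcript length (Spearman's rho -0.276 over 8319 genes, which are not independent replicates). The Tnc transcript is long, at 7100 bases, and the part of length in its fall was not tested.

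**Figure D2:**
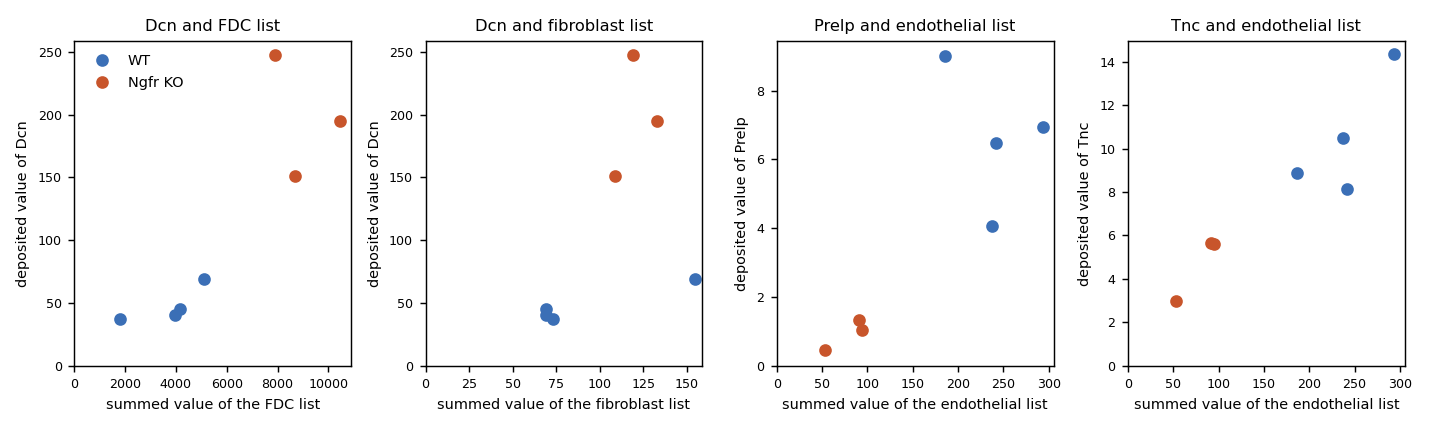
Deposited value of Dcn, Prelp or Tnc (vertical axes) against the summed deposited value of a list of cell type markers (horizontal axes) in each of the 7 pooled samples (blue, WT; orange, Ngfr KO). Dcn and the FDC list are both higher in every Ngfr KO sample than in any WT sample, but within Ngfr KO Dcn is highest where the FDC list is lowest. The fibroblast list is highest in WT replicate 4, which also has the highest Dcn value of the WT samples. Prelp and Tnc are low in the 3 samples whose endothelial list sums to 52.8 to 94.5. Within WT, Prelp is highest where that list is lowest, and Tnc is highest where it is highest.

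The sequences just around the start sites of Prelp and Tnc are shown because these are the members that fell together. They come from RefSeq (GRCm38.p6), whose promoter table matched 7 of the 10 genes; Dcn, Lum and Fn1 were not among them. Each runs 5′ to 3′ on the gene's strand, from 250 bases before to 50 bases after the start. Capitals mark matches, on either strand, to TATAAA (the TATA box), TGANTCA (the AP-1 site), CCACCC (the CACC box) and GGGCGG (the GC box).
Prelp, chr1:133921352-133921651, minus strand: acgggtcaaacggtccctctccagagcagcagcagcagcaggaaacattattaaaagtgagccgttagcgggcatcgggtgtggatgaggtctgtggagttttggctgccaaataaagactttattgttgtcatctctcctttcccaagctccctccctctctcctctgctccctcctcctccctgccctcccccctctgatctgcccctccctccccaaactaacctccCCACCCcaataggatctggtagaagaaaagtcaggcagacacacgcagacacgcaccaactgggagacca
Tnc, chr4:64046966-64047265, minus strand: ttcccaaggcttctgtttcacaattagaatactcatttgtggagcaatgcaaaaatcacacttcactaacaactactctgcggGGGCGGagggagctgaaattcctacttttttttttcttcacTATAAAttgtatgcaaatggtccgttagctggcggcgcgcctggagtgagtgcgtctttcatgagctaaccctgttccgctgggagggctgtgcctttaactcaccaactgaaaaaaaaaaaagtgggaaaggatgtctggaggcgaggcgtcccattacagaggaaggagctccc

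The Prelp window held 1 match, CCACCC at position -20 from the start, a motif found in 31.5% of the 32851 promoter windows of the table. The Tnc window held GGGCGG at -167 and TATAAA at -126, found in 35.7% and 13.6% of windows. Neither held TGANTCA, which 7.81% of windows hold, and the 2 windows shared no motif of the 4. None of these matches overlapped another. A match describes letters only, and Tnc has a second RefSeq start downstream of the one shown.

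Fn1 encodes fibronectin, a multidomain glycoprotein that cells assemble into fibrils through integrins. Fn1 (ENSMUSG00000026193) occupies chromosome 1, 71585520 to 71653200, minus strand, and has 17 annotated transcripts, which the values per gene do not separate. WT replicates 1 to 4 had 8.34, 5.63, 10.4 and 15.9, and Ngfr KO replicates 1 to 3 had 24.9, 11.2 and 23.2. Ngfr KO replicates 1 and 3 exceeded all WT samples, but replicate 2 lay below WT replicate 4. The means were 10.1 ± 4.4 (SD, n = 4) and 19.8 ± 7.5 (SD, n = 3), and the log2 change of 0.91 (SE 0.32) only just passed the threshold (limma adjusted p = 0.0433). The call was lost in 10 of 16 alternatives, among them edgeR (adjusted p = 0.0748) and the fits without WT replicate 1, 2 or 3 or Ngfr KO replicate 1 or 3 (limma adjusted p from 0.0640 to 0.154). The exact two-sided permutation p was 0.114. The log2 change was above 0 in all 16 alternatives. Macrophages also make fibronectin; their summed markers were highest in Ngfr KO replicate 3, whose Fn1 value was close to that of replicate 1, and their part in Fn1 was not tested. FDC markers were also higher in Ngfr KO, and as a percentage of their sum Fn1 was 0.142 to 0.459 in WT against 0.129 to 0.314 in Ngfr KO, so on that measure the groups overlapped and the mean was lower in Ngfr KO.

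Postn encodes periostin, which binds collagen and integrins and promotes collagen cross-linking. Postn (ENSMUSG00000027750) occupies chromosome 3, 54361109 to 54391037, plus strand. Its values were 50.9, 69.8, 54.8 and 49.0 in WT replicates 1 to 4, and 88.3, 107 and 62.9 in Ngfr KO replicates 1 to 3. Replicate 3 of Ngfr KO lay inside the WT range. The means were 56.1 ± 9.4 (SD, n = 4) and 86.1 ± 22.1 (SD, n = 3), with a log2 change of 0.59 (SE 0.23) that did not pass the threshold (limma adjusted p = 0.0669; edgeR 0.0705). It did pass without Ngfr KO replicate 3 (limma adjusted p = 0.0144), with median ratio scaling (0.0497) and with DESeq2 (0.0210). As a percentage of the summed FDC markers, Postn was 0.957 to 2.80 in WT against 0.602 to 1.23 in Ngfr KO, again with overlapping groups and a lower mean in Ngfr KO. The part of those cells in the values of Postn was not tested.

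Bgn encodes biglycan, the closest relative of decorin and, when released from matrix, a ligand of Toll-like receptors. Bgn (ENSMUSG00000031375), on the plus strand of chromosome X from 73483602 to 73495933, had values of 6.83, 6.78, 7.22 and 15.8 in WT and 8.90, 14.7 and 7.81 in Ngfr KO. WT replicate 4 and Ngfr KO replicate 2 stood above the rest. The means, 9.15 ± 4.42 (SD, n = 4) and 10.5 ± 3.7 (SD, n = 3), differed by less than the spread between samples (log2 change 0.21, SE 0.28, limma adjusted p = 0.575). Without Ngfr KO replicate 2 the log2 change was -0.036, against 0.48 without WT replicate 4. The per-length ratio of Dcn to Bgn was 6.04 to 8.57 in WT against 14.1 to 38.3 in Ngfr KO.

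Lum encodes lumican, a keratan sulfate SLRP of collagen-rich tissues. Lum (ENSMUSG00000036446) lies 47.0 kb downstream of Dcn on chromosome 10, from 97565128 to 97572703 on the same strand, with no protein-coding gene annotated between them. Its values were 3.02, 0.808, 0.213 and 1.83 in WT and 5.40, 0.892 and 1.76 in Ngfr KO. It varied several-fold within each genotype, and the ranges overlapped. Its log2 change of 0.53 (SE 0.42) was not called (limma adjusted p = 0.340). It was 0.03 without Ngfr KO replicate 1, 0.23 without WT replicate 3, 0.81 without WT replicate 1 and 0.91 without Ngfr KO replicate 2, and was called in none of these fits. Per length, Dcn exceeded Lum 17.3- to 294-fold in WT and 63.9- to 236-fold in Ngfr KO. A difference between genotypes was not detected in Lum, whose spread between pools was wide.

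Fmod, Ogn and Aspn, which encode fibromodulin, osteoglycin and asporin, were at the edge of detection. Fmod (ENSMUSG00000041559) had 21 reads in WT replicate 1 and 0 in the other WT samples, and 69, 20 and 0 reads in Ngfr KO replicates 1 to 3. Ogn (ENSMUSG00000021390) had 0 to 52 reads in WT and 5 to 63 in Ngfr KO. Aspn (ENSMUSG00000021388) had 0 to 84 reads in WT and 16 to 92 in Ngfr KO. In all 3 genes the groups overlapped and edgeR made no call (adjusted p from 0.412 to 0.837), with reads that varied widely between pools of 1 genotype. Where a sample had 0 reads, a count of 0 allows up to 3 reads, a value of 0.0112 to 0.0130 in the 4 samples concerned; such limits cover counting error only. Fmod lies 116 kb from Prelp on chromosome 1, on the opposite strand, with no protein-coding gene between them. Aspn and Ogn lie 40.5 kb apart on chromosome 13, with Omd between them.

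**Figure D3:**
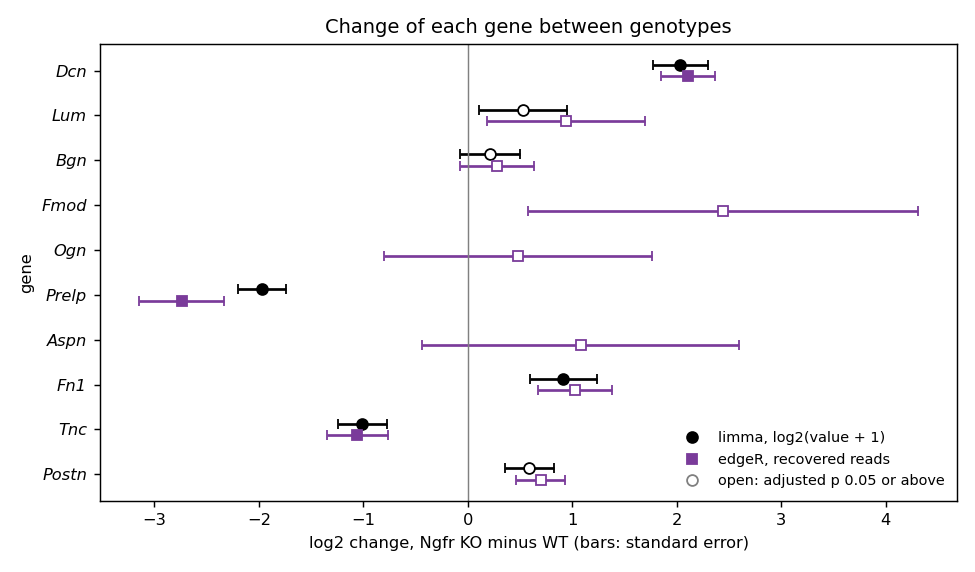
Log2 change of each of the 10 genes, Ngfr KO minus WT (horizontal axis), from limma on log2(value + 1) (circles) and from edgeR on recovered reads (squares); bars are standard errors and open symbols did not pass an adjusted p-value of 0.05. Dcn, Prelp and Tnc pass in both tests and Fn1 in limma only, and the bars of Fmod, Ogn and Aspn, tested by edgeR only, are several-fold wider than that of Dcn.

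On recovered reads edgeR tested all 10 genes and called 3, Dcn higher and Prelp and Tnc lower. Over all 16751 genes tested that way 15.2% were called, 8.67% higher and 6.55% lower. DESeq2 called 5, adding Fn1 and Postn, both higher, and over all genes it called 22.1%, of which 11.7% were higher and 10.4% lower. Dcn, Prelp and Tnc were called with the same sign by all 3 tools.

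Levels of different genes were compared per kilobase of transcript, using the length of the main annotated transcript. In WT, Dcn led with 27.3 ± 8.2 per kb (SD, n = 4), followed by Postn with 17.6 ± 3.0; the sample ranges of these neighbours overlapped. Bgn came next with 3.78 ± 1.83 per kb, above Prelp in every comparison of WT samples. Prelp (1.83 ± 0.56), Tnc (1.47 ± 0.39) and Fn1 (1.21 ± 0.52) did not differ beyond their spread, nor did Fn1 and Lum (0.600 ± 0.503). Aspn, Ogn and Fmod were at or below 0.0383 per kb on average. In Ngfr KO, Dcn rose to 113 ± 28 per kb (SD, n = 3), clear of Postn at 27.0 ± 6.9 and Bgn at 4.33 ± 1.53. Below them the order differed from WT: Fn1 (2.38 ± 0.90), Lum (1.10 ± 0.98), Tnc (0.668 ± 0.218) and then Prelp (0.258 ± 0.124). The ranges of Fn1 and Lum and of Lum and Tnc overlapped, while Tnc stayed above Prelp in all 3 samples. Among 21118 genes with a known length, Dcn ranked 267th per kb in WT and 45th in Ngfr KO, and Prelp 2541st and 8390th.

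The make-up of the SLRP transcripts is described without a test. Decorin made up 77.4 to 84.3% of the summed per-length level of the 7 SLRP genes in WT and 92.5 to 96.4% in Ngfr KO. Prolargin made up 4.13 to 6.96% in WT against 0.107 to 0.395% in Ngfr KO, and biglycan 9.81 to 13.3% and 2.49 to 6.54%. These are shares of a sum led by Dcn, so a gene that did not rise with Dcn lost share. The level of Bgn itself did not fall (log2 change 0.21, limma adjusted p = 0.575). The per-length ratio of Dcn to Prelp was 11.1 to 20.4 in WT against 234 to 901 in Ngfr KO. Among the matricellular genes, the per-length ratio of Postn to Tnc was 7.88 to 15.0 in WT against 35 to 47.4 in Ngfr KO. The ratio of Fn1, the adhesive substrate, to Tnc, its modulator, was 0.458 to 1.53 in WT against 1.69 to 6.71 in Ngfr KO. Each of these ratios sets a gene with a higher mean in Ngfr KO over one with a lower mean. Their direction follows from that choice and is no separate result.

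The pattern of each tested gene over the 7 samples was set against all others by Pearson's correlation of log2(value + 1); with 2 genotypes among so few samples these are descriptions only. Of the 8325 other genes tested, those most like Dcn were Comtd1 (r 0.99), Inip (0.98) and Serpina3i (0.98). Those most like Prelp were Ctnnal1 (1.00), Rassf9 (0.99) and Slc45a3 (0.99), and those most like Tnc were Bcar3, Plxna2 and Sh3tc1 (0.98 to 0.99). Those most like Fn1 were Commd4, Rfc3 and Brinp1 (0.96 to 0.98), and those most like Postn were Nelfa, Fastkd2 and Abraxas2 (0.98 to 0.99). For Bgn they were Tgif1, Glg1 and Itpr2 (0.94 to 0.97), and for Lum Magt1, Alg11 and Dido1 (0.92 to 0.97).

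Other genes of the same matrix were read from 7 lists. Their counts stand beside all genes tested, of which limma called 18.3% higher and 15.8% lower, and edgeR 8.67% and 6.55%. Of 11 other SLRP genes, 6 were in the table and only Ecm2 was tested. Ecm2, which lies in the same gene family cluster as Ogn and Aspn, fell from 2.46 to 0.404 on average (log2 change -1.27, SE 0.18, limma adjusted p = 6.17e-04). The 5 others, Omd, Chadl, Podn, Podnl1 and Tsku, stayed under a value of 1 in all samples; edgeR called Tsku, encoding the secreted signalling inhibitor tsukushi, higher in Ngfr KO (log2 change 1.98, adjusted p = 0.0371).

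Of 28 other matricellular genes, 24 were in the table, 7 were tested, 2 were lower and none was higher. The 2 that fell were Tgfbi, an integrin-binding matrix protein, with a log2 change of -0.78, and Spock3, of the testican family, with -0.76 (limma adjusted p = 0.0257 and 0.0328), both with overlapping groups. Neither was called by edgeR (adjusted p = 0.117 and 0.167). On 22 genes edgeR instead called Smoc1 higher and Fbln2 and Comp lower (adjusted p from 0.0316 to 0.0398), all too low for the limma filter. Sparc, a collagen-binding protein, ranged from 69.0 to 101 in WT against 98.7 to 114 in Ngfr KO (limma adjusted p = 0.297). The gene listed as Cyr61, also known as Ccn1, had 34.6 to 85.1 and 42.7 to 130 (limma adjusted p = 0.530). Among larger proteoglycans, 3 of the 7 in the table were tested and 2 fell, the basement membrane genes Agrn (log2 change -1.21) and Hspg2 (-0.60), with limma adjusted p = 4.95e-04 and 0.00705. Srgn, the proteoglycan of secretory granules, was not called (limma adjusted p = 0.171).

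Of 19 genes for receptors that bind the matrix proteins described here, 14 were tested, 3 rose and 2 fell, a share near the 34.2% called over all genes tested. Met and Egfr, receptor tyrosine kinases that decorin binds, had log2 changes of 0.84 and 0.78, and Itgav, the alpha V integrin subunit that binds fibronectin and periostin, of 0.63 (limma adjusted p from 0.00319 to 0.0220). Itga9, an integrin subunit that binds tenascin C, fell by 0.83, and Itgb3, a partner of alpha V, by 0.66 on the log2 scale (limma adjusted p = 0.00870 and 0.0329), the latter not called by edgeR (adjusted p = 0.0952). On 17 of these genes edgeR called 3 higher and 2 lower, with Itga8, too low for limma, in place of Itgb3. Itgb1, the common beta subunit, ranged from 23.9 to 26.3 in WT against 27.3 to 32.0 in Ngfr KO without being called (limma adjusted p = 0.397). Cd44, Sdc4, Tlr2 and Tlr4 were not called either (limma adjusted p from 0.110 to 0.945).

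Of 25 genes for building and sulfating glycosaminoglycan chains, 9 were tested; Chst12, a chondroitin 4-O-sulfotransferase, rose (log2 change 1.22, limma adjusted p = 0.00317), and Chst15 (-0.77) and Csgalnact1 (-0.75) fell. edgeR did not call Csgalnact1 (adjusted p = 0.0715) and called Chpf and Ust higher as well (adjusted p = 0.0278 and 0.00980). Dse, the epimerase that makes dermatan sulfate, ranged from 0.951 to 1.26 in WT against 1.11 to 1.22 in Ngfr KO (limma adjusted p = 0.824). Among fibrillar collagens and their assembly factors, 12 of 21 were tested, 2 rose and 3 fell. Pcolce, the enhancer of procollagen C-proteinase, rose from 2.78 to 11.3 on average (log2 change 1.81, SE 0.30, limma adjusted p = 0.00145), and Col5a1 had a log2 change of 0.75. Col12a1, Loxl2 and Plod1 fell by 0.84, 0.72 and 0.71 on the log2 scale. The collagen I and III chains that decorin binds were not called: Col1a2 ranged from 2.87 to 9.56 in WT against 3.68 to 4.95 in Ngfr KO (limma adjusted p = 0.975), Col3a1 had 0.326 to 3.90 and 0.987 to 2.13 (0.991), and Col1a1, which was not tested, did not exceed 1.27.

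Of the 16 genes for transforming growth factor beta ligands, latency proteins, receptors and mediators, 12 were tested and 8 fell, with a median log2 change of -0.87. Over all genes tested by limma, 15.8% were lower. The largest falls were in the co-receptor gene Tgfbr3 (log2 change -1.78), the latency protein gene Ltbp4 (-1.76), the receptor gene Tgfbr2 (-1.55) and Lrrc32 (-1.28), which anchors latent ligand at the cell surface (limma adjusted p from 3.20e-04 to 9.30e-04). On recovered reads edgeR called 9 of the 16 lower, against 6.55% of all genes it tested. These falls went with the lower endothelial markers, whose part in them was not tested.

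**Figure D4:**
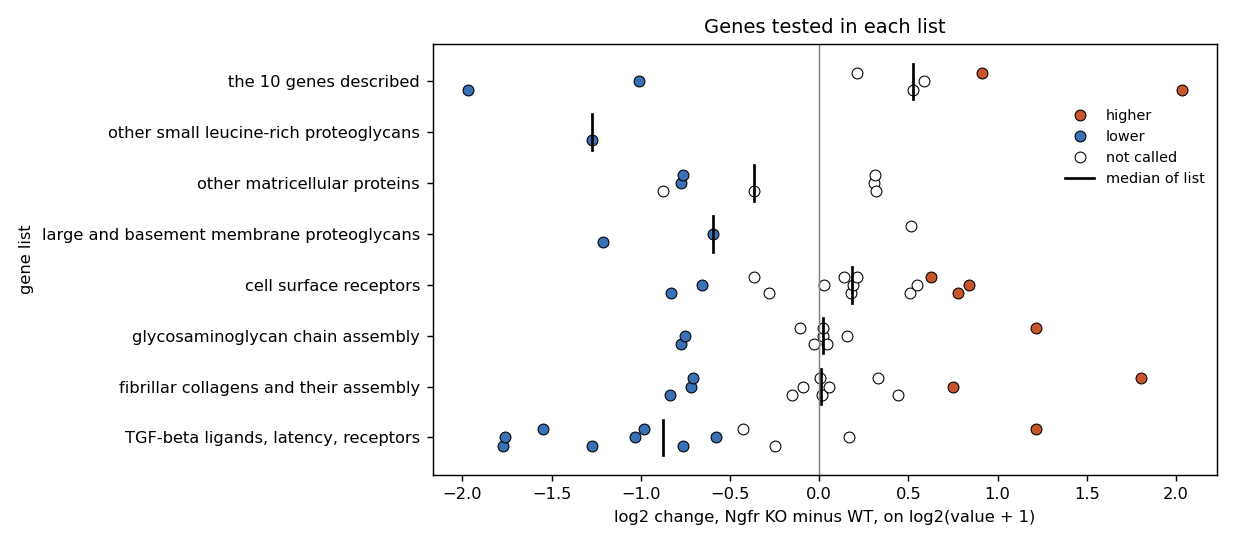
Log2 change, Ngfr KO minus WT, on the log2(value + 1) scale (horizontal axis) for each tested gene of the 10 described and of the 7 matrix lists (rows); filled points were called higher (orange) or lower (blue) by limma at an adjusted p-value under 0.05, and the bar is the list's median. The transforming growth factor beta list has 8 of 12 genes lower, while receptors, chain assembly and collagens have genes called in both directions.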

How the data were processed

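Per the labels' protocols, cDNA from the sorted cells was amplified with SMART-Seq v4 and libraries were made with Nextera XT, a kit that does not mark strand. The authors deposited 1 table of signal per gene and sample, which its name calls TMM (trimmed mean of M values); per the submitters' processing notes the build was mm10 and bcl2fastq 2.20.0.422 was used. The aligner, counting program and annotation are not given in the sources used here. Each sample's values proved to be multiples of a fixed step (100% whole within 0.01 reads), from which read counts were recovered. No gene length was divided out by the authors.

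The main test was limma 3.58.1 in R 4.3.3 (lmFit, eBayes with trend) on log2(value + 1), which understates changes of low genes, for the 8326 genes that reached a value of 1 in 3 or more samples, with Benjamini-Hochberg adjustment over all of them. Log2 changes are on that scale unless edgeR 4.0.16 (quasi-likelihood, filterByExpr, TMM) or DESeq2 1.42.0 on recovered reads is named; edgeR standard errors were derived from its F statistic. Transcript lengths and positions came from GENCODE M21 (21118 identifiers matched, 58 did not). Genotypes came from sample titles.

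All 10 genes are named whatever their values. From each list, called genes are named by size, up to 4 in each direction, and for each tested gene the 3 with the highest Pearson correlation. Other genes were named after their values were seen: Sparc, Cyr61, Srgn, Itgb1, Cd44, Sdc4, Tlr2, Tlr4, Dse, Col1a1, Col1a2, Col3a1, Tsku, Smoc1, Fbln2, Comp, Itga8, Chpf, Ust and the cell type markers. The genes and lists were chosen with earlier results of these data known. The result of 1 list gene is not reported here.

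Simulated data with 200 genes changed 4-fold were used to test the fits for Ngfr KO against WT. limma recovered 86% of them, with 4.44% false among 180 calls (8226 genes tested), edgeR 91.5% with 4.69% false among 192 (16457 genes), and DESeq2 98% with 19.0% false among 242. With no gene changed, limma called 1 gene, edgeR 0 and DESeq2 16.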

Additional observations from a re-analysis of the deposited data

Results flagged for a closer look

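For each of the 10 genes the gap between the most isolated of the 4 WT samples and the next was set against the WT range by Dixon's criterion; chance flags about 1 in 20 such groups. The gap was large in 3 genes. For Bgn, WT replicate 4 reached 15.8 where the others were at 6.78 to 7.22, a gap of 0.951 of the range. For Aspn, WT replicate 1 had 0.327 against at most 0.0299, a gap of 0.908 of the range. For Fmod, WT replicate 1 had 0.0817 against 0, a gap of 1.00 of the range, which any value above 0 gives when the others are 0. In Aspn and Fmod these are at most 84 and 21 reads. Both had WT samples at 0, so the rate of 1 in 20 cannot be relied on for them.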

How the results depend on the processing

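Dcn, Prelp and Tnc kept their direction and call in every alternative that tested them (16, 15 and 15), with log2 changes of 1.81 to 2.22, -2.76 to -0.96 and -1.15 to -0.66. A filter at a value of 10 left 3 of the 10 genes to test and called 1, Dcn; over all genes it called 535 of 1297 (359 higher and 176 lower) against 2844. Leaving out 1 sample at a time gave 3 to 4 of the 10 genes and 1614 to 3006 genes in all, fewest without WT replicate 1 (1870), Ngfr KO replicate 1 (1803) or Ngfr KO replicate 2 (1614); the cause was not tested. Bgn reversed without Ngfr KO replicate 2, its log2 change ranging from -0.036 to 0.48 over such fits. Other alternatives (pseudocounts of 0.1 and 5, no filter, quantile normalization, median ratio scaling, edgeR, DESeq2) called 3 to 5 of the 10 genes. Whether the replicate numbers pair the samples was not settled. Deviations of same-numbered samples correlated at 0.30, -0.06 and -0.01, and those of other pairs at -0.20 to 0.11. With the replicate number as a block, to which WT replicate 4 adds nothing, 5 of the 10 genes and 2717 genes in all were called. Lum was added (limma adjusted p = 0.0381), and Fn1 was called at a limma adjusted p of 0.00268. Fmod, Ogn and Aspn had at most 92 reads in any sample, and whether depth limited their tests was not tested.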
